A study of Drosophila melanogaster with 6 samples.

Results

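Cuticle protein genes encode the structural proteins that are laid down with chitin to build the exoskeleton of insects. In the comparison table of larval central nervous system (CNS) transcriptomes, 91 of 13416 genes had a symbol that starts with Cpr followed by a digit, Lcp, Twdl or Ccp. The genes were taken by these name prefixes, from a table that leaves out 29 genes with the same prefixes that reached at most 0.0971 FPKM in any library. The 91 genes comprised 52 Cpr, 19 Twdl, 14 Lcp and 6 Ccp genes. Bulk RNA sequencing was performed on the CNS of third-instar *Drosophila melanogaster* larvae, with 40 to 45 larvae collected per sample. Libraries of 2 genotypes were compared, the w1118 control and larvae homozygous for Alk-YS, with 3 biological replicates each. In Alk-YS, genome editing of the *Alk* gene replaced a kinase-domain tyrosine of the encoded receptor by serine. No animal received a treatment, and the allele was made in an edited stock, so a difference caused by the allele and a difference carried by the genetic background cannot be told apart. The stock list of the study gives its wild-type control as a y1 w1118 line that carries germline Cas9, whereas the labels of these samples give w1118 only.

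Insect cuticle is secreted by the epidermis and by the epithelia of the trachea, foregut and hindgut, and it is renewed at each moult under the control of the steroid hormone ecdysone. Cpr proteins (cuticular proteins with the Rebers and Riddiford consensus), Lcp proteins (larval cuticle proteins) and Ccp proteins (encoded by a cluster at cytological position 84A) share a chitin-binding domain, whereas Twdl (Tweedle) proteins form a separate family, in which altered *TwdlD* changes the shape of the larval body. The deposited annotation followed this division. The chitin-binding label Chitin_bind_4 was present for all 72 Cpr, Lcp and Ccp genes and for none of the 19 Twdl genes. Neurons and glia are not classical sources of cuticle, so the question addressed here was which of these genes were read in CNS preparations and whether the libraries or the genotypes differed.

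The genes were short and mostly clustered. Their length had a median of 876 bases, against 1722 bases over all genes in the table, and ranged from 394 to 3427 bases. Of the 90 genes with a coding sequence, 58 had 2 exons in the transcript with the longest coding sequence, 11 had 1 exon and 21 had 3 or more. The median coding length was 105 codons for Lcp, 191 for Cpr, 202 for Ccp and 281.5 for Twdl genes, and *TwdlU* is annotated as a pseudogene. On the BDGP6 assembly, 33 lay on 3L, 24 on 3R, 22 on 2R, 8 on X and 4 on 2L. With neighbours joined at a gap of up to 20 kb, 65 of the 91 fell into 15 clusters and 26 stood alone. The largest cluster, at 65A on 3L from 6130386 to 6161589, held 14 genes. Exons of 6 members (*Lcp9*, *TwdlE*, *Twdlalpha*, *Cpr73D*, *Lcp65Ag3* and *Cpr65Au*) overlap those of another gene. No member lay close to the edited gene, since the nearest, *Cpr51A*, was 2.11 Mb from *Alk* on 2R.

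The libraries held between 18770029 and 22333967 reads assigned to genes. *Alk* itself had between 2136 and 2989 normalized counts (reads divided by a size factor that adjusts for sequencing depth) in control and between 2472 and 2696 in Alk-YS, a level that does not read the exchanged amino acid. Summed FPKM (fragments scaled by gene length and library size) of 13 neuronal, glial and neuroblast markers lay between 421 and 483 in control and between 406 and 465 in Alk-YS. Transcripts of other tissues were uneven. The 9 midgut and peritrophic matrix markers in the table summed to 1752 FPKM in control replicate 3, 331 in Alk-YS replicate 1 and 309 in Alk-YS replicate 3, and to at most 2.90 in the other 3 libraries. The 7 fat body markers summed to between 260 and 2278 FPKM in control and between 66.4 and 615 in Alk-YS.

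Cuticle protein transcripts were a trace component of the CNS preparations, and few genes supplied most of them. They took between 0.0162% and 0.0663% of the reads assigned to genes in a library. Of the 91 genes, 28 had more than 3 reads in every library, 50 in some of the libraries, and 13 in none. A count of 0 allows up to 3 reads, and such limits cover counting error only. Mean levels of at least 10 normalized counts were reached by 30 genes, which were the genes tested between genotypes, and mean levels of at least 1 FPKM by 27 genes. The 3 genes with the highest mean FPKM, *Lcp4*, *Cpr49Ac* and *Lcp1*, held 55.1% of the summed mean FPKM of all members, and the 10 highest held 85.0%. The rank of single genes differed among libraries. *Lcp4* ranked first in control replicates 2 and 3 and Alk-YS replicate 3, and *Cpr49Ac* in the other 3 libraries. In control replicate 1 and Alk-YS replicate 1, *Lcp4* was at 6.74 and 5.93 FPKM and ranked below *Cpr51A*, *Cpr78E* and *Cpr12A*. By prefix, summed mean levels were 164 FPKM for Lcp, 163 for Cpr, 6.53 for Twdl and 3.86 for Ccp genes.

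**Figure D1:**
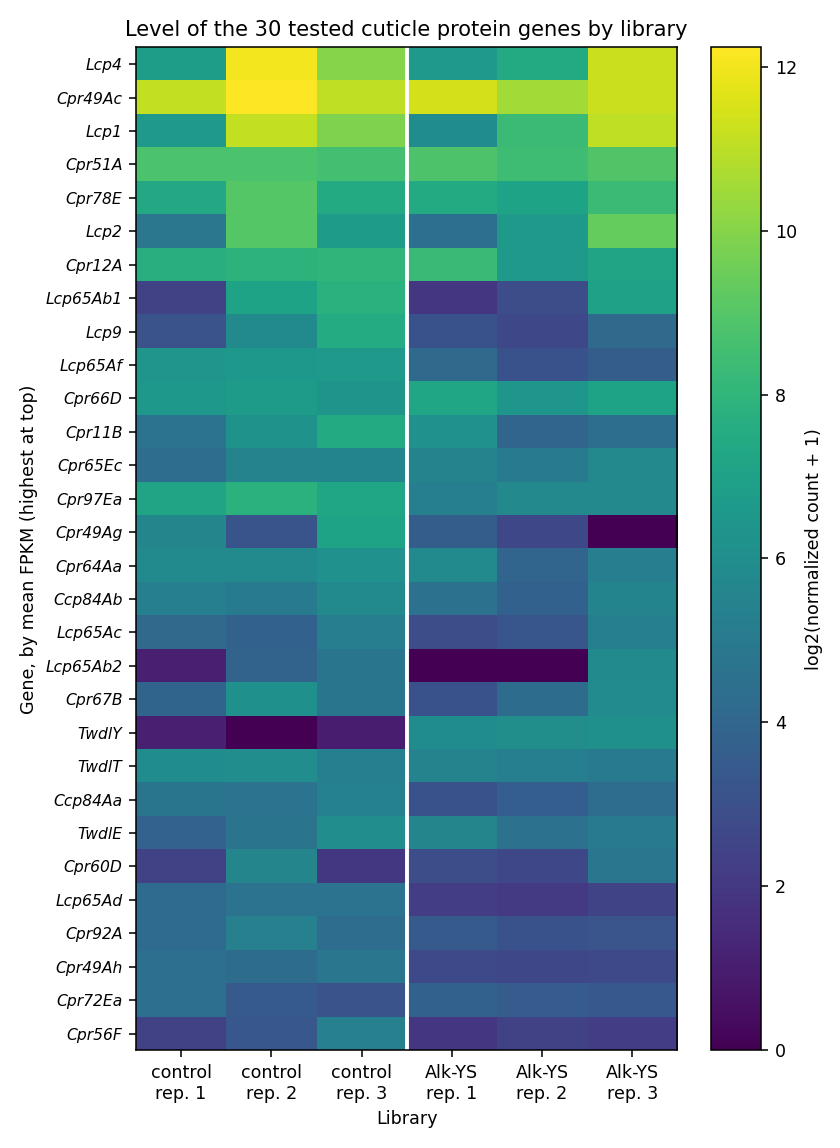
Levels of the 30 tested cuticle protein genes (rows, ordered by mean FPKM) in the 6 libraries (columns), as log2(normalized count + 1) by colour, with control at the left and Alk-YS at the right of the white line. *Lcp4*, *Lcp1*, *Lcp2* and *Lcp65Ab1* change colour between libraries of the same genotype, whereas *Cpr51A* keeps its colour in all 6 libraries.

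*Lcp4* and its neighbours *Lcp1* and *Lcp2* were abundant in some libraries and low in others. *Lcp1*, *Lcp2*, *Lcp3* and *Lcp4*, genes of major proteins of the third-instar larval cuticle, lie within 8.38 kb on 2R between 8430115 and 8438495. *Lcp4* (FBgn0002535) had 111, 4205 and 1048 normalized counts in control replicates 1 to 3 and 97.7, 177 and 2484 in Alk-YS replicates 1 to 3. *Lcp1* (FBgn0002531) had 95.7, 2226 and 950 in control and 59.9, 319 and 2116 in Alk-YS. *Lcp2* (FBgn0002533) had 27.5, 509 and 107 in control and 21.2, 97.2 and 651 in Alk-YS. Control replicates 2 and 3 and Alk-YS replicate 3 were therefore the 3 highest libraries for all 3 genes, and control replicate 1 and Alk-YS replicate 1 were the lowest. For *Lcp2*, however, control replicate 3 was close to Alk-YS replicate 2 (107 against 97.2). *Lcp3*, in the middle of the same cluster, did not share these levels and stayed between 2.77 and 11 normalized counts. *Lcp1* and *Lcp2* are similar copies, and reads that fit both could have been divided between them.

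The genotypes overlapped for each of these genes, and the spread between replicates exceeded the difference between groups. The highest *Lcp4* library held 43.0 times the level of the lowest, and the group means were 1788 ± 2145 and 920 ± 1356 normalized counts (control and Alk-YS, SD, n = 3). Limma put the log2 fold change of *Lcp4* at -1.17 ± 1.5 (SE), and the two-sided exact permutation p was 0.6, where 3 against 3 libraries cannot go below 0.1. Its 95% interval ran from -4.64 to 2.31, which spans both a fall and a rise. For *Lcp1* the corresponding interval was -4.10 to 2.56, and for *Lcp2* it was -3.14 to 3.05. The direction of all 3 genes depended on single libraries, as their log2 fold changes were 0.039, 0.19 and 1.02 without control replicate 2.

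Some members outside this cluster were high in the same libraries and others were not. *Lcp65Ab1* (FBgn0020644; 3L, 6149548 to 6149960) had 4.4, 137 and 222 normalized counts in control and 2.77, 6.41 and 128 in Alk-YS, an 80.4-fold range. *Lcp65Ab2*, its near-identical copy at 6146674 to 6147089, had 1.10, 14.0 and 25.6 in control and 0, 0 and 57.7 in Alk-YS. Because the copies share sequence, the division of reads between them is uncertain, but both were high in control replicates 2 and 3 and Alk-YS replicate 3. *Cpr67B* had 14.3, 69.0 and 25.6 in control and 7.38, 19.2 and 58.6 in Alk-YS, again highest in these 3 libraries. *Lcp65Ac* was lowest in control replicate 2 among the control libraries, with 17.6, 13 and 36.4 in control and 6.45, 8.54 and 38.1 in Alk-YS. *Lcp65Af* and *Lcp65Ad*, whose values are given with the genotype test, did not follow these libraries. *Lcp9* (FBgn0025578; 2R, 24779979 to 24780428), the shortest member, had 7.70, 56.0 and 184 in control and 7.38, 5.34 and 17.7 in Alk-YS. Its exon overlaps *asRNA:CR44067* on the opposite strand, and whether reads were counted by strand is not given in the sources used here. DESeq2 on recovered reads placed *Lcp9* past the threshold (adjusted p = 0.0173), whereas limma did not (adjusted p = 0.421).

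**Figure D2:**
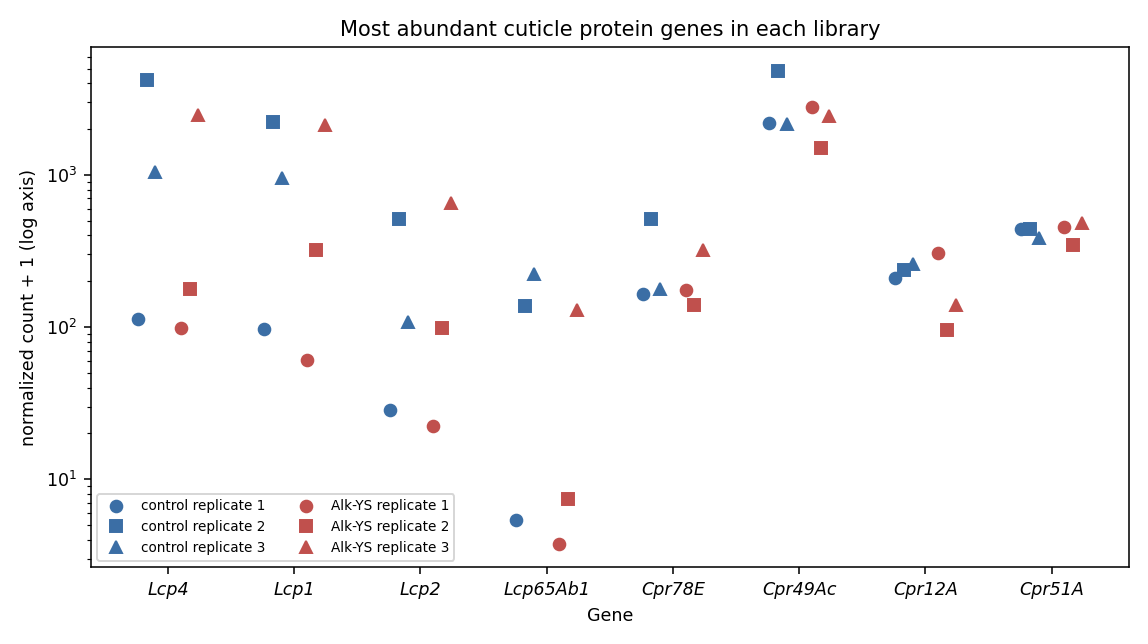
Normalized count + 1 on a log axis for 8 of the most abundant members, with control libraries in blue and Alk-YS libraries in red and the replicate given by the marker shape. *Lcp4*, *Lcp1*, *Lcp2* and *Lcp65Ab1* spread over more than 1 order of magnitude within each genotype, while the 6 values of *Cpr51A* lie between 343 and 483.

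Other abundant members were present in every library at a narrower range than *Lcp4*. *Cpr49Ac* (FBgn0033725; 2R, 12386666 to 12390057), a gene of 7 exons, was abundant in every library, with a 3.23-fold range and 2193, 4821 and 2162 normalized counts in control and 2780, 1493 and 2446 in Alk-YS. *Cpr51A* (FBgn0033942; 2R, 14512559 to 14515211) had 442, 438 and 383 in control and 456, 343 and 483 in Alk-YS, the smallest range over libraries of any tested member at 1.41-fold. Its log2 fold change was 0.01 with a 95% interval from -0.35 to 0.37. *Cpr66D* ranged from 78.7 to 150 normalized counts, and its range of 1.91-fold was the only other one below 2-fold. *Cpr12A* (FBgn0030494; X, 13543643 to 13544907) had 210, 236 and 257 in control and 306, 94.0 and 140 in Alk-YS. *Cpr78E* (FBgn0037114; 3L, 21666452 to 21666980) had 164, 514 and 176 in control and 175, 138 and 320 in Alk-YS, so that its highest libraries were among those high for *Lcp4*. In 12 of the 30 tested members the range over the 6 libraries exceeded 10-fold.

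The makeup of the cuticle signal therefore differed among libraries of the same genotype. Summed member FPKM was 180, 680 and 357 in control replicates 1 to 3 and 183, 140 and 485 in Alk-YS replicates 1 to 3. *Lcp1*, *Lcp2* and *Lcp4* together supplied 6.94%, 56.2% and 31.4% of it in control, and 5.30%, 21.6% and 57.9% in Alk-YS. *Cpr49Ac* and *Cpr51A* together supplied between 18.8% and 52.7%, with the highest shares in control replicate 1 and Alk-YS replicate 1. Without *Lcp1*, *Lcp2* and *Lcp4* the sums were 237 ± 65.5 FPKM in control and 163 ± 48.1 in Alk-YS (SD, n = 3). With them the sums were 406 ± 254 and 269 ± 188 (SD, n = 3), and both pairs of groups overlapped. The within-group SD of log2 values had a median of 0.67 in control and 0.64 in Alk-YS over the tested members, against 0.19 and 0.14 over all genes tested.

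Several tissue marker lists were set beside this library pattern. All 8 ring gland markers, among them the ecdysone biosynthesis genes *nvd*, *spok*, *phm*, *dib* and *sad*, were read in every library. Their sum was 525, 657 and 707 FPKM in control and 440, 532 and 730 in Alk-YS, so its 3 highest libraries were also the 3 highest for *Lcp4*. This was not particular to the ring gland. The 8 hemocyte markers summed to 126, 145 and 216 FPKM in control and 89.2, 117 and 134 in Alk-YS, with the same 3 highest libraries. The 12 epidermis and disc markers summed to between 109 and 121 FPKM in control and between 107 and 113 in Alk-YS. The 10 trachea and foregut markers summed to between 80.5 and 92.9 in control and between 78.1 and 88.0 in Alk-YS, and *Gasp*, a chitin-binding protein of the tracheal cuticle, was at 1644 to 2188 normalized counts. Epidermis and disc markers such as *ap*, *Dll*, *grh* and *bab2* reached at least 1364 normalized counts in every library and are also used in the nervous system, so a small share of epithelium would not show in these sums. In bulk samples, fewer cells of a type and less RNA per cell cannot be told apart, and the part of these tissues in the Lcp levels was not tested.

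Between genotypes, 4 of the 30 tested cuticle protein genes passed the test. *Lcp65Af*, *Cpr97Ea* and *Lcp65Ad* were lower in Alk-YS and *TwdlY* was higher. Calls were made with limma at a Benjamini-Hochberg adjusted p under 0.05 over the 9668 genes that reached a mean level of 10 normalized counts, of which 287 passed (2.97%). Lower calls made up 1.71% of all genes tested, against 3 of the 30 members, and higher calls 1.26%, against 1 of the 30. The 3 control and 3 Alk-YS values did not overlap for 7 members that were lower in Alk-YS, where 10.1% of all genes tested had this pattern. Of these 7, *Cpr56F* separated in normalized counts but not in reads. *Lcp65Ad*, *Cpr92A*, *Cpr49Ah* and *Cpr56F* reached the minimum mean only through control libraries, so the filter favours this pattern in them. Values did not overlap for 1 member that was higher, against 9.41% of all genes tested. This member, *TwdlY*, reached the minimum mean only through Alk-YS libraries. An unadjusted p from limma under 0.05 was reached by 8 members, against 13.8% of all genes tested, and 7 of these were lower, against 7.71%.

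**Figure D3:**
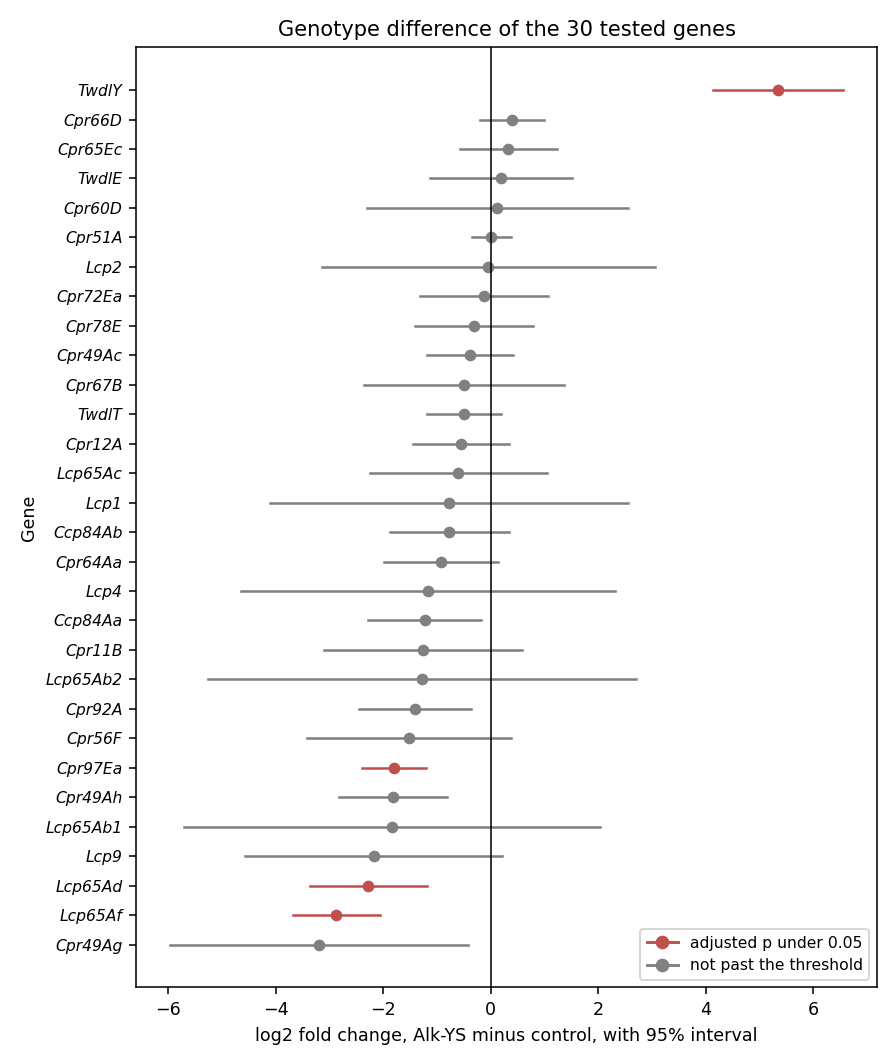
Log2 fold change of the 30 tested members, Alk-YS minus control, on log2(normalized count + 1), with the 95% interval from limma. The 4 genes past the threshold are red, and the widest intervals belong to *Lcp65Ab2*, *Lcp65Ab1*, *Lcp4* and *Lcp1*.

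*Lcp65Af* gave the clearest fall. This gene (FBgn0020639; 3L minus strand, 6136215 to 6136791) encodes a larval cuticle protein of the 65A cluster and had 83.6, 92.0 and 93.5 normalized counts in control. In Alk-YS it had 17.5, 7.47 and 11.2. The means were 89.7 ± 5.32 and 12.1 ± 5.08 (SD, n = 3). Limma put the log2 fold change at -2.87 ± 0.35 (SE, adjusted p = 0.0064). All 3 Alk-YS libraries were far below the lowest control library, and the groups did not overlap. In contrast to *Lcp4*, its level was similar in control replicates 1 and 2, which had the lowest and the highest summed cuticle level of the control libraries.

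*Lcp65Ad*, 13 kb from the left end of the same cluster, was also lower. This gene (FBgn0020641; 3L plus strand, 6143395 to 6144101) had 18.7, 24.0 and 24.6 normalized counts in control and 3.69, 3.20 and 4.65 in Alk-YS. Limma put its log2 fold change at -2.27 ± 0.47 (SE, adjusted p = 0.0482). *Lcp65Ad* reached the mean level needed for testing only through the control libraries. With no filter on low values the adjusted p from limma was 0.0276. The groups did not overlap, but the call was at the edge of the threshold. It was lost when any 1 of the 6 libraries was left out, with adjusted p from limma between 0.102 and 0.147, while the log2 fold change stayed between -2.39 and -2.18.

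*Cpr97Ea*, a cuticular protein gene on 3R (FBgn0039480; minus strand, 27083130 to 27087778), had 141, 226 and 147 normalized counts in control and 37.8, 52.3 and 53.0 in Alk-YS. Every control library was above every Alk-YS library. The means were 171 ± 47.6 and 47.7 ± 8.59 (SD, n = 3), and limma put the log2 fold change at -1.80 ± 0.26 (SE, adjusted p = 0.0122). Without control replicate 2, the highest library, the adjusted p was 0.0508 at a log2 fold change of -1.59. Its neighbour *Cpr97Eb* was near the detection limit, with 1.10 to 10.7 normalized counts. Among tested genes outside the name rule within 50 kb of *Cpr97Ea*, 1 of 12 was called by limma, *CG5882*, with a log2 fold change of -2.41.

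*TwdlY* was read in Alk-YS and nearly absent from control. This single-exon Tweedle gene (FBgn0052570; X plus strand, 16734947 to 16735980) had 1, 0 and 1 reads in the control libraries and 66, 60 and 74 reads in the Alk-YS libraries. The Alk-YS level was 64.6 ± 4.01 normalized counts (SD, n = 3), at least 20.9-fold higher than the 3 reads per library that a control count of 0 allows. Limma gave an adjusted p of 0.0021, but *TwdlY* reached the mean level needed for testing only through the Alk-YS libraries. With no filter on low values the adjusted p from limma was 0.00085. The Alk-YS libraries were close to each other, although they differed widely in *Lcp4*.

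The other Tweedle genes of this X cluster, which spans 13.3 kb, did not move alike. *TwdlZ*, the gene after *TwdlY*, had 1, 1 and 0 reads in control and 5, 6 and 4 in Alk-YS. *TwdlX*, upstream of *TwdlY*, had 13, 7 and 18 reads in control and 6, 2 and 0 in Alk-YS, so that its groups separated in the opposite direction. *Twdlalpha* had 3, 9 and 8 reads in control and 15, 7 and 16 in Alk-YS, and its groups overlapped. *TwdlX*, *TwdlZ* and *Twdlalpha* were below the minimum mean and were not tested by limma. The exact two-sided permutation p for *TwdlZ* was 0.1, the smallest possible. Any 3 against 3 libraries that do not overlap give this p, so it adds nothing to the separation. An exon of *Twdlalpha* overlaps *CG32568* on the same strand, so its reads are uncertain.

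**Figure D4:**
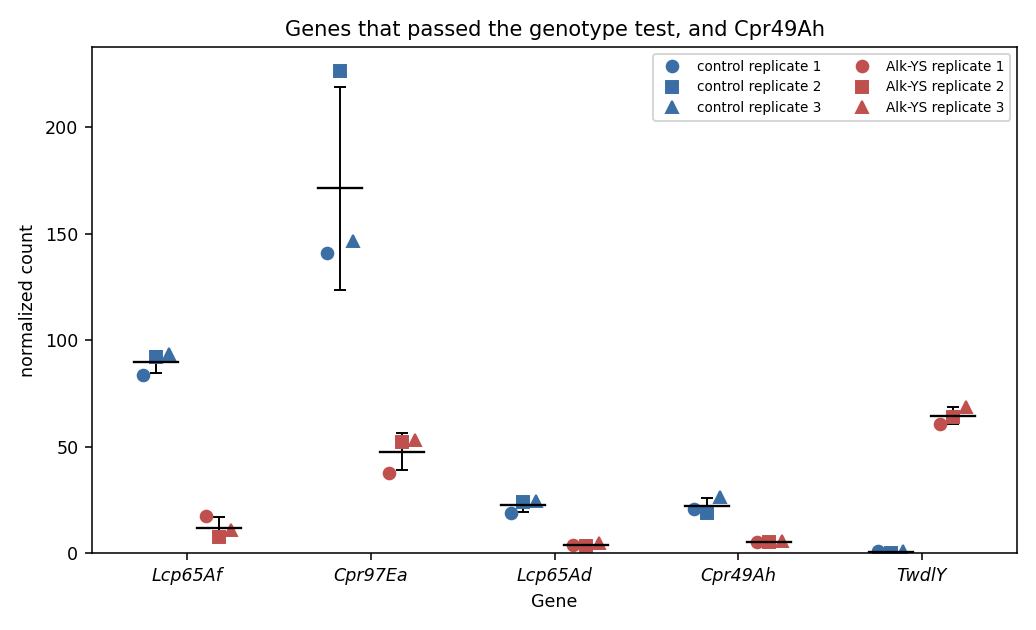
Normalized counts of the 4 members that passed the test and of *Cpr49Ah*, by library, with the mean (horizontal line) and SD (bars) of 3 libraries per genotype. The control and Alk-YS points do not overlap for any of the 5 genes, and *TwdlY* is the only one higher in Alk-YS.

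At 4 further tested members the groups did not overlap in normalized counts without the difference passing the test. *Cpr49Ah* (FBgn0033731) had 20.9, 19.0 and 26.6 normalized counts in control and 5.53, 5.34 and 5.58 in Alk-YS. In limma its log2 fold change was -1.82 (adjusted p = 0.0762). It passed with edgeR on recovered reads (adjusted p = 0.0345), where 2.7% of genes were called, and with DESeq2 (adjusted p = 0.0448), where 6.33% were called. *Ccp84Aa* had 26.4, 24.0 and 40.4 in control and 7.38, 11.7 and 19.5 in Alk-YS. *Cpr92A* had 18.7, 39.0 and 19.7 in control and 10.1, 7.47 and 8.37 in Alk-YS. *Cpr56F* had 4.4, 9.0 and 39.4 in control and 2.77, 4.27 and 3.72 in Alk-YS. All 4 were lower in Alk-YS, with log2 fold changes between -1.82 and -1.23. *Cpr49Ag* (FBgn0033730), next to *Cpr49Ah*, had the lowest log2 fold change of the tested members at -3.20, but its values of 47.3, 8.0 and 135 in control and 11.1, 5.34 and 0 in Alk-YS overlapped, and it passed with DESeq2 only. In *Cpr56F* the highest value, in control replicate 3, set most of the difference between the group means. Its reads were 4, 9 and 40 in control and 3, 4 and 4 in Alk-YS, so its groups separated through the size factors alone.

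Most tested members had a lower mean log2 level in Alk-YS, whether or not they passed. A log2 fold change below 0 was found for 24 of the 30, against 48.4% of all genes tested, and the median was -0.77 against 0.01. *Cpr49Ag*, *Lcp65Ad*, *Cpr92A*, *Cpr49Ah* and *Cpr56F* reached the minimum mean only through control libraries, and *TwdlY* only through Alk-YS libraries, which feeds these values. With no filter on low values the median over members was -0.52, with 65 below 0 and 26 above. All 9 tested Lcp genes, both tested Ccp genes, 12 of 16 tested Cpr genes and 1 of 3 tested Twdl genes were on the lower side, and the median was -1.28 for Lcp and -0.53 for Cpr genes. These signs are of log2 means. The mean normalized count was higher in Alk-YS for *Lcp2* (215 in control, 256 in Alk-YS) and *Lcp65Ab2* (13.6 and 19.2). For *Cpr60D* and *TwdlE*, on the higher side by log2, it was lower in Alk-YS. The members share libraries and several vary together, so their signs are not independent. The median ranged from -1.27 without Alk-YS replicate 3 to -0.43 without Alk-YS replicate 2. The highest value of a member was in a control library for 22 of the 30 and the lowest in an Alk-YS library for 24. Single libraries weighed unequally in these counts. Control replicates 1 to 3 held 1, 9 and 12 of the highest values, and Alk-YS replicates 1 to 3 held 10, 12 and 2 of the lowest. The share over all genes tested was not counted, so this pattern is not a result about genotype.

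Along the 65A cluster, several neighbouring genes were lower in Alk-YS. Of its 14 genes within 31.2 kb, 7 had normalized counts that were higher in all control than in all Alk-YS libraries, and none had the reverse. This pattern was found for 10.1% of all genes tested and 7.15% of those below the minimum mean. *Lcp65Ag1* had 1 read in control replicate 1 and 1 read in Alk-YS replicate 1, so by reads 6 of the 7 did not overlap. The 7 were *Lcp65Ag2*, *Lcp65Ag1*, *Lcp65Af*, *Lcp65Ae*, *Cpr65Av*, *Lcp65Ad* and *Cpr65Ay*, and only *Lcp65Af* and *Lcp65Ad* were high enough to be tested. *Lcp65Ag2*, *Lcp65Ag1*, *Lcp65Ae* and *Cpr65Av* had at most 3 reads in at least 1 control library, which a count of 0 allows. Their lowest control library, taken alone, is therefore not distinct from a count of 0, and the separation of their groups was not tested. Only *Lcp65Af*, *Lcp65Ad* and *Cpr65Ay* had more than 3 reads in every control library. *Cpr65Ay* had 35.2, 5.00 and 14.8 normalized counts in control and 0, 0 and 1.86 in Alk-YS. *Cpr65Av* had 4.4, 3.00 and 26.6 in control and 0, 0 and 1.86 in Alk-YS. *Lcp65Ag2* had 14.3, 6.00 and 2.95 in control and 0, 1.07 and 0 in Alk-YS, but it is 1 of 3 closely similar Lcp65Ag copies between which reads may have been divided. The other 7 genes lay at both ends and inside the same interval, and their groups overlapped, with mean log2 ratios from -1.84 (*Lcp65Ab1*) to 0.45 (*Cpr65Az*). Among tested genes outside the name rule within 50 kb of *Lcp65Af*, 0 of 12 were called by limma.

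**Figure D5:**
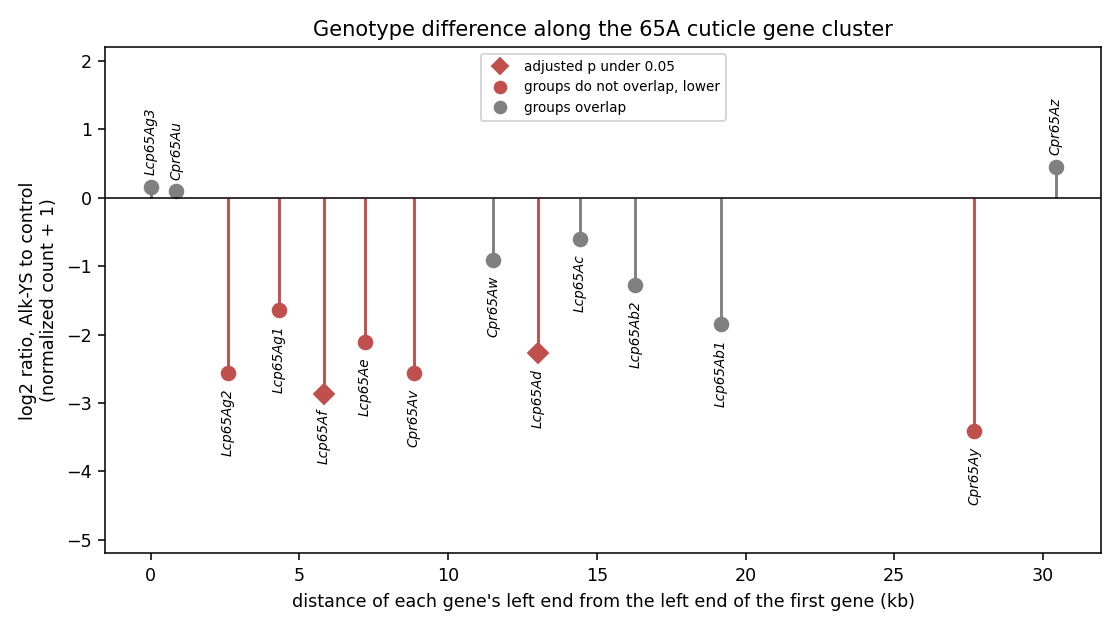
Mean log2 ratio of Alk-YS to control, on log2(normalized count + 1), of the 14 genes of the 65A cluster by distance in kb along 3L. Diamonds mark *Lcp65Af* and *Lcp65Ad*, which passed the test, red marks the 7 genes whose groups do not overlap, all lower in Alk-YS, and grey marks the 7 whose groups overlap.

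Members below the minimum mean were compared without a test. Of the 61 members not tested, 13 had normalized counts that did not overlap between groups and were lower in Alk-YS, where 7.15% of all genes below the minimum had this pattern. By reads, only 9 of the 13 did not overlap, since *Cpr72Eb*, *Lcp65Ag1*, *TwdlC* and *Cpr5C* separated through the size factors alone. Over all members, 3 had more than 3 reads in every control library and at most 3 in every Alk-YS library, and 2 had the reverse. The share of all genes with these patterns was not counted, so neither count is a result about genotype. The groups did not overlap with Alk-YS higher for 4 members, against 4.83%. These 4 were *Cpr50Cb*, *Cpr65Ea*, *Cpr76Bc* and *TwdlZ*. *Cpr50Cb*, at the top of the untested genes, had 8, 0 and 2 reads in control and 16, 20 and 14 in Alk-YS. *TwdlG* had 9, 16 and 5 reads in control and 1, 1 and 0 in Alk-YS, and *Cpr100A* had 11, 12 and 5 in control and 1, 2 and 0 in Alk-YS. At most 3 reads in every library were found for 13 members.

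Other genes of cuticle formation lay on both sides. Of 5 cuticle genes outside the name rule that were in the table, 3 were tested and 0 passed in limma. *Pcp*, a pupal cuticle protein gene, had 56.1, 110 and 68.9 normalized counts in control and 130, 155 and 195 in Alk-YS, with an adjusted p from limma of 0.11. Among 20 tested genes of chitin synthesis and the apical matrix, only *Cda4*, a chitin deacetylase-like gene, passed. It fell from 1070, 1049 and 1201 normalized counts in control to 813, 697 and 717 in Alk-YS, a log2 fold change of -0.58. The median of that list was 0.00 with 10 genes on each side. None of 12 tested genes of tanning and pigment passed, but *ple*, which encodes the tyrosine hydroxylase that starts the catecholamine pathway, was at 1431 normalized counts in Alk-YS replicate 1 and between 97.2 and 320 in the other libraries. Among 17 tested ecdysone-responsive regulators 0 passed, and the median log2 fold change was 0.04.

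Single markers of other tissues that the dissection could carry differed between genotypes. Over all genes tested, 48.4% were on the lower side and 1.71% were called lower. Genes of a list can vary together, so their signs are not independent. The muscle markers had 11 of 11 tested genes on the lower side, of which *Mlc1* and *Mlc2* passed, and their sum was 97.0 to 120 FPKM in control and 55.9 to 79.2 in Alk-YS. The fat body markers had 7 of 7 on the lower side, of which *Fbp2* passed. Of 8 hemocyte markers 7 were on the lower side, and *NimC1* passed, with sums of 126 to 216 FPKM in control and 89.2 to 134 in Alk-YS. Of 6 tested salivary gland markers 3 were on the lower side and 3 on the higher side, with a median log2 fold change of 0.13, and only *Sgs4* passed, as lower, with sums of 14.2 to 42.1 FPKM in control and 7.52 to 21.8 in Alk-YS. No gene passed in limma among 11 tested epidermis and disc, 10 trachea and foregut, 8 ring gland, 4 midgut and 13 CNS markers. All 4 midgut markers were on the higher side, with a median log2 fold change of 2.19, although their sum was highest in control replicate 3. Of the CNS markers 9 were on the lower side and 4 on the higher side, with a median of -0.18. The part of these tissues in the levels of *Lcp65Af*, *Cpr97Ea*, *Lcp65Ad* and *TwdlY* was not tested.

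Few single genes correlated closely with the summed level of the members over libraries. Of 8330 other genes whose mean reached 50 normalized counts, 5 had a Pearson correlation over 0.95 with the log2 summed member level across the 6 libraries. These were *CG34008* (0.977), *CG42566* (0.969), *CG10425* (0.961), *CG44085* (0.951) and *lz* (0.951), given as a description without a test over 6 libraries that also differ in depth and tissue markers. *CG42566* had 146, 317 and 269 normalized counts in control and 140, 131 and 250 in Alk-YS. The correlation does not compare the size of changes. *CG34008* ranged only from 122 to 145 and *CG10425* from 432 to 496, while the summed member level ranged from 140 to 680 FPKM. How many of the 8330 genes would reach such a correlation by chance was not tested.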

How the data were processed

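Reads were aligned with HISAT2 2.0.5 to the Ensembl BDGP6 assembly, and featureCounts 1.5.0-p3 and DESeq2 1.20.0 are named in the submitters' processing notes. The annotation release and the use of strand in counting are not given in the sources used here. The authors deposited a comparison table of 13416 genes with a normalized signal per library, which is the read count divided by a DESeq2 size factor, and an FPKM table of 17558 genes. The comparison table also holds the authors' log2 fold changes, p-values and adjusted p-values, which were not used. Positions, strands and exons of the 91 members were compared with the BDGP6 annotation supplied for this work, and all 91 positions were the same.

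Dividing each library by its smallest value above 0 gave whole reads for 100% of values (tolerance 0.0001). An automatic check accepted this for 5 libraries and not for control replicate 2, whose size factor of 1.00 leaves its values too close to whole numbers for that check, so tests on recovered reads were alternatives only. Genes whose mean reached 10 normalized counts entered a two-sided limma 3.58.1 fit (R 4.3.3) of log2(normalized count + 1), using lmFit and then eBayes with its trend option. P-values of the 9668 genes were adjusted by the Benjamini-Hochberg method. The added count of 1 makes fold changes of low genes smaller than they are. Where a group held at most 3 reads in every library, the fold is a lower bound against 3 reads per library. The fit was tested on simulated data. The precision is set by 3 libraries per group.

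Named members were those called, the 10 with the highest mean FPKM, those tested whose groups did not overlap, and any with over 75% of at least 50 normalized counts in 1 library, which none had. Untested members, neighbours in a cluster and members of steady level were named after their values were seen. The 5 genes outside the rule most like the summed member level were named by correlation. The members, the 13 marker and pathway lists and the tests were chosen with earlier results of these data known. Alternatives were edgeR 4.0.16 and DESeq2 1.42.0 on recovered reads, TMM scaling, pseudocounts of 0.1 and 5, no filter and a minimum mean of 50, the FPKM table, no mean-variance trend, a replicate block, an adjusted p under 0.01, and leaving out each library. Sequences of the genes were not used here.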

Additional observations from a re-analysis of the deposited data

How the results depend on the processing

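The direction of *TwdlY*, *Lcp65Af*, *Cpr97Ea* and *Lcp65Ad* was kept under each alternative that tested them. DESeq2 on recovered reads called 612 genes and 7 members, against 287 and 4 in limma, and the 7 included all 4. An adjusted p under 0.01 left 84 genes and 2 members, *Lcp65Af* and *TwdlY*. A minimum mean of 50 left 12 members to test, of which 2 were called, *Cpr97Ea* and *Lcp65Af*, while *TwdlY* was below that minimum. Leaving out each library gave between 105 and 336 genes, between 2 and 3 members called, between 30 and 32 members expressed, a member median between -1.27 and -0.43, and a log2 difference of the summed member FPKM between -1.33 and 0.0041, against -0.59 with all libraries. *Lcp65Ad* was lost with a pseudocount of 0.1 (adjusted p from limma 0.0565).

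The log2 fold change of *Lcp2*, -0.049 in limma, was 0.24 in edgeR, 0.25 in DESeq2 and 0.0057 on the FPKM table. With single libraries left out, it ranged from -1.32 to 1.12, that of *Lcp4* from -2.58 to 0.039, that of *Lcp1* from -2.08 to 0.48, that of *Cpr78E* from -0.66 to 0.22 and that of *Cpr51A* from -0.087 to 0.16. The cause was not tested. Of 265 alternative values of the 17 named members, 252 kept their direction. The 252 include values from the settings that cannot change a log2 fold change, so this count overstates how far direction was tested.

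Samples with the same replicate number did not all deviate together (correlations across genes of -0.12, 0.35 and 0.41), so the numbers were not taken to pair samples. With the replicate block, 284 genes and 3 members were called, and *Lcp65Ad* was not among them (adjusted p from limma 0.108). At these depths a count of 0 allows up to 3 reads, which limits what can be said of the 13 members not detected in any library.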

Other observations

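A further 29 genes with the same name prefixes were listed in the deposited FPKM table only and entered no comparison. Of these, 22 were at 0 FPKM in all 6 libraries and 7 were above 0 in 1 library, with a highest value of 0.0971 FPKM.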
